A study of Homo sapiens with 6 samples.

Results

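The genes described here are 10 members of the Hippo signalling output pathway: the coactivator genes YAP1 and WWTR1, the TEAD transcription factor genes TEAD1 and TEAD4, the angiomotin-like genes AMOTL1 and AMOTL2, the kinase gene LATS2, and the target genes CCN1, CCN2 and ANKRD1. They were taken by symbol from a deposited table of 30493 genes, where each had exactly 1 row, and all 10 passed the filter on low counts that left 17089 genes for testing. The RNA came from A549, an established human lung adenocarcinoma line grown in culture, in 3 libraries with knockdown of STAU1 and 3 control libraries. The control libraries are labelled as carrying a control plasmid and titled NC, and the titles of the knockdown libraries carry the prefix si. STAU1 encodes Staufen1, a protein that binds double-stranded RNA and acts in mRNA transport, translation and decay, and the comparison asked which mRNAs differ in amount when it is depleted. Nothing in the labels states that replicate libraries stem from separate cultures. The p-values therefore reflect variation among the 6 libraries alone, and that variation may be technical.

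In the Hippo pathway the kinases MST1 and MST2, which are encoded by STK4 and STK3, activate LATS1 and LATS2, which phosphorylate the coactivators YAP and TAZ and so hold them in the cytoplasm. When phosphorylation is low, YAP and TAZ enter the nucleus, bind TEAD factors and raise transcription of genes that include CCN1, CCN2, ANKRD1, AMOTL2 and LATS2. The last 2 of these encode inhibitors of YAP and TAZ and so close a negative feedback loop. Pathway activity is set largely by the phosphorylation and position of the YAP and TAZ proteins, and the mRNA amounts given here measure neither.

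Libraries held 30354219, 31033209 and 35431441 counts in knockdown replicates 1 to 3 and 31791407, 31458569 and 32832268 in control replicates 1 to 3. STAU1 itself was at 16.0, 15.7 and 14.6 CPM (CPM being counts scaled by library size, here with TMM factors) in the knockdown libraries and at 120.5, 125 and 117 CPM in the controls, a 7.83-fold lower level. Epithelial and A549 markers summed to between 23451 and 23785 CPM in knockdown and between 26398 and 26887 CPM in control libraries. Of these 9 markers 5 were lower (KRT7, KRT8, KRT18, AKR1C1 and AKR1B10), 3 were higher (CDH1, EPCAM and ALDH1A1) and KRT19 was not called. A list of 9 fibroblast and endothelial markers summed to between 16.7 and 19.4 CPM in knockdown and between 11.2 and 12.1 CPM in control libraries. Of the 6 with enough counts 4 were called higher, and COL3A1 and PECAM1 were not called. For comparison with both marker lists, 22.2% of all genes tested were called higher and 21.9% lower. LUM, THY1, CDH5 and PDGFRA, the 4 higher genes, averaged 9.91, 5.15, 1.64 and 0.449 CPM in knockdown and 6.05, 3.64, 0.802 and 0.212 CPM in control libraries. PDGFRA held only 12, 14 and 19 counts in knockdown and 4, 3 and 13 in control libraries. Its CPM overlapped between the groups, and its adjusted p rounded to the threshold of 0.05. None of the 9 was at 0 in every library, and the 3 with too few counts to test, DCN, PDGFRB and VWF, averaged 0.150, 0.117 and 0.0526 CPM in knockdown and 0.161, 0.159 and 0.0321 CPM in control libraries. Immune markers summed to between 16.9 and 19.6 CPM in knockdown and between 13.8 and 15.3 CPM in control libraries, mostly from CD14 at 15.9 CPM in knockdown and 12.7 CPM in control libraries, with PTPRC and CD3E not listed in the table. Mitochondrially encoded genes took between 15.8% and 16.1% of counts in knockdown and between 17.3% and 17.9% in control libraries. The part of these shifts in the results below was not tested.

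After STAU1 knockdown 6 of the 10 members rose and 2 fell, at a threshold of 0.05 on the adjusted p, and WWTR1 and CCN1 were not called. Over all genes tested 44.1% were called, with 22.2% higher and 21.9% lower. Total-count scaling gave 7 higher and 1 lower member and both FPKM scales 6 and 1, while the share of all calls that were higher was 69.5% when scaled by total counts, 77.3% for log2(FPKM + 1) and 77.2% for log2(FPKM + 0.1), against 50.3% in the TMM-scaled test. The median log2 fold change, knockdown minus control, was 0.25 over the members and -0.00019 over all genes, and the median size regardless of sign was 0.32 over the members and 0.18 over all genes. The CPM of the groups did not overlap for 8 of the 10 members, against 51.4% of all genes tested. By mean CPM the members lay between the 47.1 percentile (ANKRD1) and the 96.2 percentile (WWTR1) of the genes tested. The shares over all genes were not matched to that level, and the members were chosen with earlier results of these data known. In bulk RNA fewer cells that express a gene and less RNA per cell cannot be told apart.

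**Figure D1:**
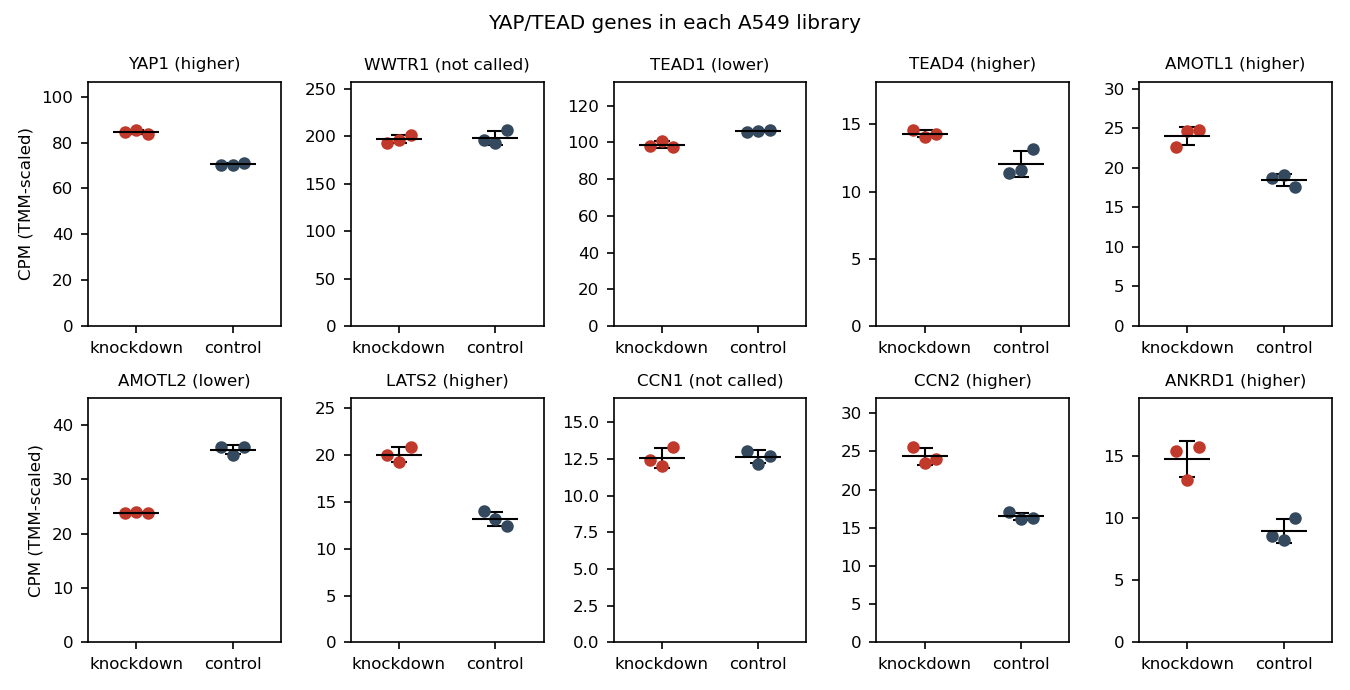
CPM (TMM-scaled, linear axis from 0) of each of the 10 genes in the 3 STAU1 knockdown libraries (red, left) and 3 control libraries (dark blue, right), with the mean and SD as black bars. The groups are apart for 8 genes and overlap for WWTR1 and CCN1.

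The coactivators behaved differently from each other. YAP1 (ENSG00000137693.14, chromosome 11, 102110461 to 102233423, plus strand, GRCh38) had 84.5, 85.3 and 83.5 CPM in knockdown replicates 1 to 3, against 70.4, 70.3 and 70.9 CPM in control replicates 1 to 3. The knockdown libraries were all above the controls, and YAP1 was called higher at 1.20-fold (log2 fold change 0.26, SE 0.03, adjusted p = 8.0e-09). GENCODE 29 lists the processed pseudogenes YAP1P1 and YAP1P2, which may share reads with it. WWTR1, which encodes TAZ (ENSG00000018408.15, chromosome 3, 149517235 to 149736714, minus strand), had 193, 196 and 201 CPM in the knockdown libraries and 196, 193 and 206 CPM in the controls. These values overlapped fully, with a log2 fold change of -0.011 (95% interval -0.061 to 0.040, adjusted p = 0.77). With total-count scaling WWTR1 was called higher instead (0.066, adjusted p = 0.030), so its direction depended on the scaling. An antisense gene inside it, WWTR1-AS1, held only 25, 28 and 26 counts in knockdown and 21, 22 and 28 in control libraries, while WWTR1 had at least 5899 counts in every library.

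Per length, WWTR1 was the most abundant member in both groups. The deposited FPKM (fragments scaled by transcript length and library size) averaged 20.8 ± 0.864 in knockdown and 19.4 ± 0.786 in control libraries (SD, n = 3 each). YAP1 followed with 11.8 ± 0.167 FPKM in knockdown and 9.12 ± 0.0907 FPKM in control libraries. The FPKM ratio of YAP1 to WWTR1 within a library was 0.568 ± 0.0161 in knockdown and 0.471 ± 0.0142 in control libraries. Such a ratio does not depend on how libraries are scaled, and on the log2 scale of counts it differed by 0.27 between the groups with no overlap.

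The TEAD factors, which bind DNA and recruit the coactivators, moved in opposite directions by small amounts. TEAD1 (ENSG00000187079.20, chromosome 11, 12674591 to 12944483, plus strand) had 98.1, 101 and 97.3 CPM in knockdown and 106, 106 and 107 CPM in control libraries. It was called lower, at a log2 fold change of -0.10 (SE 0.03, adjusted p = 0.0024). That call did not survive total-count scaling (-0.028, adjusted p = 0.45) or the deposited FPKM, where TEAD1 averaged 8.13 ± 0.166 in knockdown and 8.10 ± 0.0608 in control libraries and the log2 changes were 0.0046 with log2(FPKM + 1) and 0.0051 with log2(FPKM + 0.1). TEAD4 (ENSG00000197905.10, chromosome 12, 2959330 to 3040673, plus strand) had 14.6, 14.1 and 14.3 CPM in knockdown and 11.4, 11.6 and 13.2 CPM in control libraries. Control replicate 3 stood closest to the knockdown libraries, and TEAD4 was called higher at 1.18-fold (log2 fold change 0.24, SE 0.07, adjusted p = 0.0037). Without control replicate 1 the change was 0.20 and without control replicate 3 it was 0.31. The FPKM ratio of TEAD1 to TEAD4 was 1.47 ± 0.0496 in knockdown and 1.88 ± 0.138 in control libraries.

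The angiomotin-like genes encode junction-associated scaffold proteins that bind YAP and TAZ and hold them outside the nucleus, and they diverged more than any other paralogs compared here. AMOTL2 (ENSG00000114019.15, chromosome 3, 134355874 to 134375479, minus strand) fell to 23.8, 24.0 and 23.9 CPM in knockdown replicates 1 to 3, against 35.9, 34.5 and 35.9 CPM in the controls. It was the member with the largest fall, 1.49-fold lower (log2 fold change -0.57, SE 0.05, adjusted p = 1.1e-12), and a change of that size or less was seen in 91.0% of all genes tested. With log2(FPKM + 1) the change was -0.37 and still called. AMOTL2 overlaps RPL39P5, a pseudogene on the same strand, which held 115, 105 and 120 counts in knockdown and 120, 130 and 142 in control libraries, while AMOTL2 held 744, 765 and 862 counts in knockdown and 1115, 1055 and 1144 in control libraries. AMOTL1 (ENSG00000166025.18, chromosome 11, 94706431 to 94876753, plus strand) had 22.6, 24.6 and 24.7 CPM in knockdown and 18.7, 19.1 and 17.6 CPM in control libraries. It was higher in all 3 knockdown libraries, at 1.30-fold (log2 fold change 0.38, SE 0.06, adjusted p = 5.2e-07). The FPKM ratio of AMOTL2 to AMOTL1 was 1.54 ± 0.0714 in knockdown libraries and 2.98 ± 0.186 in controls. The third family member, AMOT, was scarce, at 0.764 ± 0.205 CPM in knockdown and 0.472 ± 0.182 CPM in control libraries, and was not called.

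LATS2, the kinase that phosphorylates YAP and TAZ and is itself a YAP/TEAD target (ENSG00000150457.9, chromosome 13, 20973032 to 21061547, minus strand), had 19.96, 19.2 and 20.8 CPM in knockdown and 14.0, 13.1 and 12.4 CPM in control libraries. The lowest knockdown library was well above the highest control, and LATS2 was called higher at 1.52-fold (log2 fold change 0.61, SE 0.06, adjusted p = 4.0e-10). Its paralog LATS1 had 15.2 ± 0.993 CPM in knockdown and 14.4 ± 0.443 CPM in control libraries and was not called (log2 fold change 0.079, 95% interval -0.047 to 0.21, adjusted p = 0.34). The FPKM ratio of LATS2 to LATS1 was 2.001 ± 0.203 in knockdown and 1.39 ± 0.111 in control libraries.

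The target genes CCN1, CCN2 and ANKRD1 are commonly read as outputs of YAP and TEAD, and CCN1 did not move with the other two. CCN2, which encodes the secreted matricellular protein also called CTGF (ENSG00000118523.6, chromosome 6, 131948176 to 131951373, minus strand), had 25.6, 23.4 and 24.0 CPM in knockdown and 17.1, 16.2 and 16.3 CPM in control libraries. All knockdown values were above all control values, with a 1.47-fold rise (log2 fold change 0.56, SE 0.06, adjusted p = 2.3e-10). ANKRD1, an ankyrin repeat protein of the nucleus and of the muscle sarcomere (ENSG00000148677.7, chromosome 10, 90912096 to 90921276, minus strand), had 15.4, 13.1 and 15.8 CPM in knockdown and 8.61, 8.27 and 10.05 CPM in control libraries. It had the largest rise among the members, 1.65-fold (log2 fold change 0.72, SE 0.08, adjusted p = 5.0e-09), and a change of that size or less was seen in 95.1% of all genes tested. ANKRD1 was also the most variable member, with a coefficient of variation of 9.90% in knockdown and 10.5% in control libraries, where counting error alone gives 4.52% and 5.98%. Leaving out single libraries moved its log2 fold change between 0.66 and 0.81.

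CCN1, the matricellular gene also called CYR61 of the same family as CCN2 (ENSG00000142871.18, chromosome 1, 85580761 to 85583962, plus strand), had 12.4, 11.997 and 13.3 CPM in knockdown and 13.1, 12.2 and 12.7 CPM in control libraries. The groups overlapped, and the log2 fold change was -0.0052 (95% interval -0.14 to 0.13, adjusted p = 0.96). That interval lies below those of CCN2 and ANKRD1, which were 0.45 to 0.67 and 0.56 to 0.88. CCN1 counts of 388, 383 and 481 in knockdown and 405, 372 and 405 in control libraries were of the same order as those of ANKRD1, at 483, 418 and 570 in knockdown and 267, 253 and 320 in control libraries. The FPKM ratio of CCN1 to CCN2 within a library was 0.327 ± 0.0222 in knockdown and 0.483 ± 0.00896 in control libraries.

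**Figure D2:**
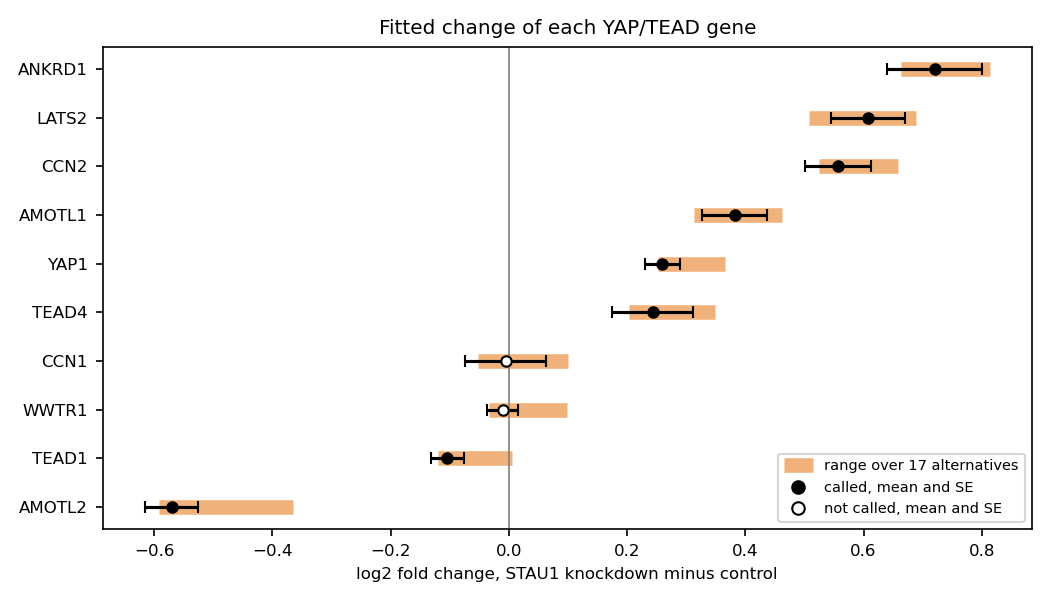
Log2 fold change (STAU1 knockdown minus control) of each gene with its SE, filled where called at an adjusted p under 0.05 and open where not, over an orange band for the range of 17 alternative settings. ANKRD1 at 0.72 and AMOTL2 at -0.57 are the extremes, and the bands of CCN1, WWTR1 and TEAD1 cross 0.

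The promoters of CCN2 and ANKRD1 are shown because these targets rose together, and that of AMOTL2 because it fell. Each run is the 250 bases before a RefSeq start (GRCh38.p14, 5′ to 3′ on the gene's strand, which is minus for all 3 genes), with capitals for matches to the TEAD hexamer GGAATG on either strand or the AP-1 heptamer TGANTCA; no TEAD and AP-1 match overlaps another in these windows. The windows are chr6:131951373-131951622 for CCN2, chr10:90921088-90921337 for ANKRD1 and chr3:134374448-134374697 for AMOTL2.
CCN2: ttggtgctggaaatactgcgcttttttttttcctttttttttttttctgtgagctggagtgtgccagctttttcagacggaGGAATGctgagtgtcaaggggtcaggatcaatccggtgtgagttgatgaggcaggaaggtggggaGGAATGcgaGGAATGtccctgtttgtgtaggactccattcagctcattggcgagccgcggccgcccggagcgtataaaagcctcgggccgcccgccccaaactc
ANKRD1: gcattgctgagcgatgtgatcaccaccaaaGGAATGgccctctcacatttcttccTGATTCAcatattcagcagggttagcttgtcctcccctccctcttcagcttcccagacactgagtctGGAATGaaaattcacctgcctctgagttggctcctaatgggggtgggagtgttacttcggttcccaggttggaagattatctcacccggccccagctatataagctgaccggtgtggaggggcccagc
AMOTL2: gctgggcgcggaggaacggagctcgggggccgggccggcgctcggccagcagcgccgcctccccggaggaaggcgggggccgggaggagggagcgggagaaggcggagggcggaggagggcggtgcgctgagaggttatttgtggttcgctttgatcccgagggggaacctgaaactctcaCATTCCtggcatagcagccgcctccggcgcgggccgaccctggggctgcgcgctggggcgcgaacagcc

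CCN2 holds the hexamer 3 times, with first bases at -169, -104 and -95 from the start. ANKRD1 holds the hexamer at -220 and -128. It also holds TGATTCA at -195, which matches the AP-1 heptamer because the central N accepts any base. The AMOTL2 window belongs to the more downstream of its RefSeq starts and holds the hexamer once, on the opposite strand at -69, while the window of its other start holds none. RefSeq windows that run from 250 bases before to 50 bases after a start were matched for 7 of the 10 members. TEAD1, TEAD4 and CCN1 had no window, so their promoters were not examined. Of their 9 windows, with more than 1 for AMOTL2 and WWTR1, 5 hold the hexamer, against 14.0% of all 35116 windows. These include the windows of YAP1 at -162 and LATS2 at 10. CCN2, ANKRD1, AMOTL2 and LATS2 are listed here as known YAP/TEAD targets, so their matches are not an independent result. The hexamer was in 5 of 13 windows (38.5%) of the other YAP/TEAD targets and in 8 of 46 (17.4%) of other Hippo pathway genes. The AP-1 heptamer was in 1 of the 9 member windows and in 7.71% of all windows. At least 3 matches, as in CCN2, occur in 0.128% of all windows and at least 2, as in ANKRD1, in 1.37%. Of the 46 windows of other Hippo pathway genes 1 held at least 3 and 2 held at least 2. Of the 13 windows of other targets 0 held at least 3 and 1 held at least 2. The windows of WWTR1 and AMOTL1 hold neither motif. A match describes letters only, and these data do not measure binding.

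The 5 paralog ratios were compared within libraries on the log2 scale of counts, where library scaling cancels. The ratio of AMOTL2 to AMOTL1 was 0.072, -0.039 and -0.051 in knockdown replicates 1 to 3, against 0.94, 0.85 and 1.03 in the controls. For CCN1 to CCN2 it was -1.04, -0.96 and -0.85 in knockdown and -0.38, -0.41 and -0.36 in control libraries. The knockdown mean minus the control mean was -0.95 for AMOTL2 to AMOTL1, -0.57 for CCN1 to CCN2, 0.52 for LATS2 to LATS1, -0.35 for TEAD1 to TEAD4 and 0.27 for YAP1 to WWTR1. The groups did not overlap for any of the 5, and no such share was computed for other pairs of genes. Each pair holds at least 1 member whose own CPM did not overlap, as was so for 51.4% of all genes tested. The separation of the ratios is therefore partly a restatement of those single-gene differences. Each ratio gave p = 0.10 in a two-sided exact permutation test, also after Benjamini-Hochberg adjustment over the 5 pairs. That is the smallest p that 3 against 3 libraries allow.

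**Figure D3:**
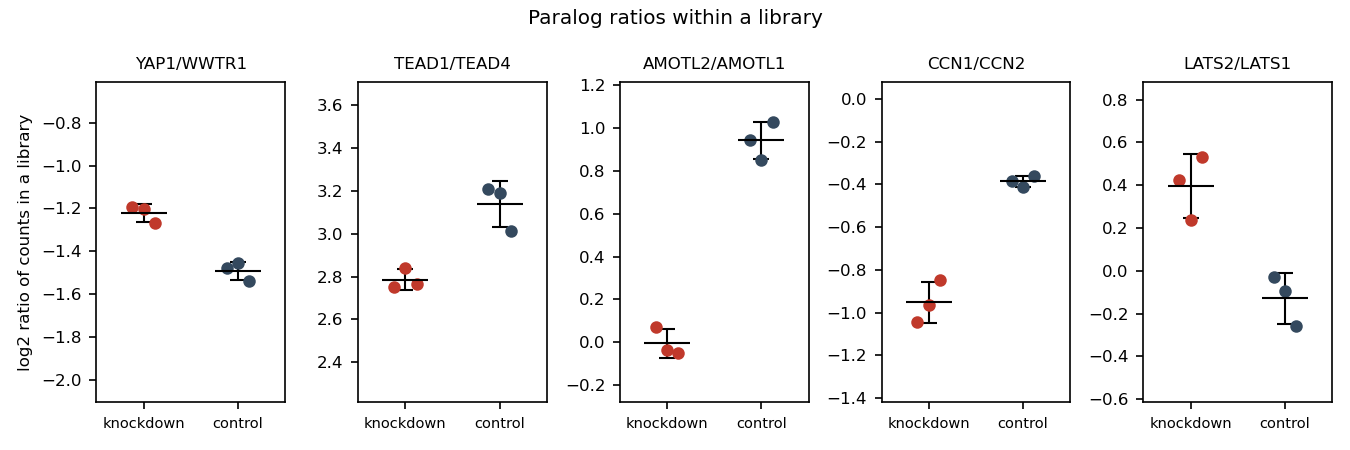
Log2 ratio of the counts of paralogs within each library, for 3 STAU1 knockdown libraries (red, left) and 3 control libraries (dark blue, right), with mean and SD as black bars; every panel spans the same 1.5 log2 units around its own centre. The groups are apart in all 5 panels, by most for AMOTL2/AMOTL1 at -0.95. Every pair includes a gene whose own CPM was apart between the groups.

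The order of members by FPKM differed between the groups in its middle. In knockdown libraries it ran WWTR1, YAP1, CCN2, TEAD1, ANKRD1, TEAD4, AMOTL2, LATS2, CCN1 and AMOTL1. Neighbours with overlapping libraries there were TEAD1 (8.13 ± 0.166) and ANKRD1 (7.28 ± 0.795), AMOTL2 (3.24 ± 0.0709) and LATS2 (3.14 ± 0.183), and LATS2 and CCN1 (3.0 ± 0.219). In controls the order was WWTR1, YAP1, TEAD1, CCN2, AMOTL2, TEAD4, ANKRD1, CCN1, LATS2 and AMOTL1. Neighbours that overlapped in controls were AMOTL2 (4.47 ± 0.127) and TEAD4 (4.34 ± 0.367), and TEAD4 and ANKRD1 (4.10 ± 0.454). CCN2 reached 9.17 ± 0.369 FPKM in knockdown and 5.77 ± 0.164 FPKM in control libraries, and AMOTL1 was the least abundant member in both groups, at 2.11 ± 0.135 FPKM in knockdown and 1.503 ± 0.0569 FPKM in control libraries.

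For other Hippo pathway genes, 37 of a list of 39 were tested, with 8 higher, 5 lower and 24 not called. Over all genes tested 44.1% were called, 22.2% higher and 21.9% lower, and neither count in this list exceeded that background share of its 37 genes. The median log2 fold change was 0.055, and the median size regardless of sign was 0.10 over this list and 0.18 over all genes. The split depended on scaling, with 22 higher and 2 lower under total-count scaling and with 18 higher on each FPKM scale beside 1 lower for log2(FPKM + 1) and none for log2(FPKM + 0.1). VGLL1 was not in the table and DCHS1 had too few counts. VGLL4, a cofactor that binds TEADs and competes with YAP, had 49.8, 49.8 and 49.2 CPM in knockdown and 31.3, 32.8 and 31.3 CPM in control libraries, and it was 1.56-fold higher (log2 fold change 0.64, SE 0.04). The junction scaffold gene DLG5 was 1.55-fold higher, with 74.3 ± 2.19 CPM in knockdown and 47.9 ± 2.86 CPM in control libraries. MAP4K4, a kinase that acts on LATS in parallel to MST1 and MST2, was at 106 ± 3.94 CPM in knockdown and 76.6 ± 2.35 CPM in control libraries (0.46, SE 0.03). SAV1, the scaffold of the MST kinases, rose by 0.35 on the log2 scale and the LIM protein gene WTIP by 0.37.

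Falls in this list were small. NF2, the merlin gene that activates the kinase cascade at the membrane, was at 20.2 ± 0.238 CPM in knockdown and 24.1 ± 0.258 CPM in control libraries (log2 fold change -0.25, SE 0.05). RASSF1, which binds the MST kinases, had -0.27, the LIM protein gene AJUBA -0.15, the PP2A scaffold gene PPP2R1A -0.11 and the LATS cofactor gene MOB1A -0.095. All 5 lost the call in at least 1 alternative setting: RASSF1 on both FPKM scales (largest adjusted p = 0.093), NF2 with log2(FPKM + 0.1) (adjusted p = 0.051), and AJUBA, PPP2R1A and MOB1A on both FPKM scales and with total-count scaling. MOB1A changed sign to 0.015 on both FPKM scales. By role, the STRIPAK phosphatase genes had 1 of 6 lower and 5 not called, and the core kinase cassette had 1 of 6 higher and 1 lower. The remaining TEAD genes were not called, though the CPM of the groups did not overlap for either. TEAD2 had a log2 fold change of 0.10 (adjusted p rounding to 0.05) and TEAD3 of 0.21 (adjusted p = 0.07). TEAD2 reached 11.2 ± 0.469 FPKM in knockdown and 9.67 ± 0.298 FPKM in control libraries, a higher level per length than TEAD1 in both groups.

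**Figure D4:**
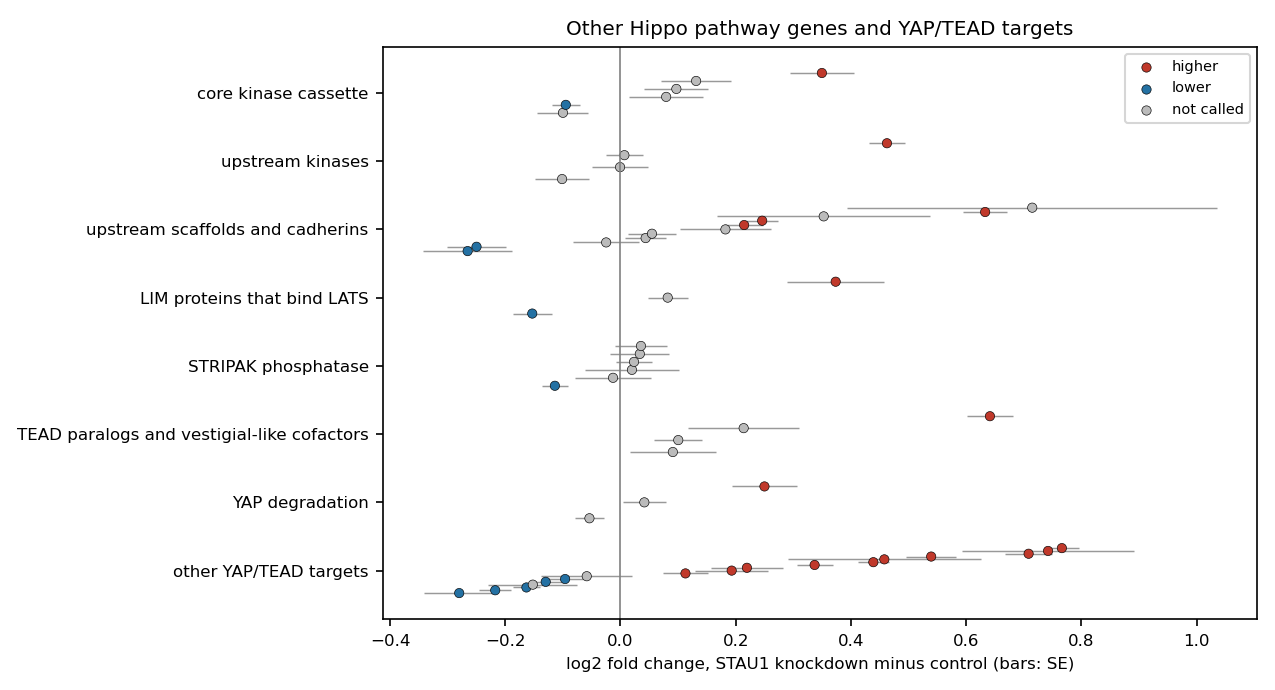
Log2 fold change (STAU1 knockdown minus control) with SE of 37 other Hippo pathway genes, grouped by role, and of 17 other YAP/TEAD targets, in red where called higher, blue where called lower and grey where not called. Most Hippo genes are grey near 0, and 10 of the 17 targets are red.

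The 17 other YAP/TEAD targets come from a commonly used target signature. All 17 were tested, with 10 higher, 5 lower and 2 not called and a median log2 fold change of 0.19. The background over all genes tested was 44.1% called, 22.2% higher and 21.9% lower, with a median size of 0.18 against 0.22 for these targets. Total-count scaling gave 10 higher and 3 lower, and each FPKM scale 10 higher and none lower. CCDC80, which encodes a matrix-associated protein, had 109, 106 and 111 CPM in knockdown and 64.6, 64.1 and 63.3 CPM in control libraries, 1.70-fold higher (log2 fold change 0.77, SE 0.03). TGFB2, a TGF-beta ligand gene, was 1.63-fold higher, with 52.9 ± 1.13 CPM in knockdown and 32.4 ± 1.38 CPM in control libraries. NT5E, the ecto-5′-nucleotidase CD73, had 51.9 ± 3.52 CPM in knockdown and 35.8 ± 0.438 CPM in control libraries, and the RNA-binding protein gene RBMS3 rose by 0.74 from a low level, with 3.24 ± 0.0489 CPM in knockdown and 1.93 ± 0.202 CPM in control libraries. On the log2(FPKM + 1) scale, which understates changes of low genes, RBMS3 had 0.086.

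The tissue factor gene F3 was called at 0.46 (SE 0.17, adjusted p = 0.025) with 2.33, 2.29 and 3.24 CPM in knockdown and 1.87, 1.99 and 1.92 CPM in control libraries. That value leaned on knockdown replicate 3, without which it was 0.26 (adjusted p = 0.27). The call also ended without control replicate 1, 2 or 3 (adjusted p = 0.075, 0.053 and 0.067) and in DESeq2 (adjusted p = 0.11). The lower targets were PTPN14, a phosphatase that also restrains YAP (-0.28, SE 0.06), the guanine nucleotide exchange factor gene DOCK5 (-0.22, SE 0.03), the membrane repair gene MYOF (-0.16, SE 0.02), the Arf GTPase-activating gene ASAP1 (-0.13, SE 0.03) and the receptor tyrosine kinase gene AXL (-0.096, SE 0.03). None of these 5 falls was called on either FPKM scale by limma, where AXL had 0.012 and 0.013. ASAP1 and AXL also lost the call with total-count scaling. AXL also lost its call without control replicate 3 or knockdown replicate 1 (adjusted p = 0.054 and 0.078).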

How the data were processed

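Poly(A) RNA was sequenced as paired-end directional libraries, per the labels' protocols. The authors deposited read counts per gene as whole numbers, and FPKM values of the same libraries. HISAT2, DESeq2 and GRCh38 are named in the submitters' processing notes without role or version, while counter, annotation and strand setting were not given in the sources used here, so reads of overlapping or antisense genes may not be separated.

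Counts were filtered with filterByExpr (minimum count 10), scaled with TMM factors and tested in edgeR 4.0.16 under R 4.3.3 by the quasi-likelihood test, with Benjamini-Hochberg adjustment across all 17089 genes; adjusted p-values come from this test unless another is named. Each SE was the log2 fold change divided by the root of the F statistic, and 95% intervals are 1.96 SE to either side. Paralog ratios used log2 of counts plus 0.5. The script was tested on simulated counts with 200 changed genes, far fewer than were called in these data. That test does not bear on the choice of scaling. Replicates of a group differed by more than counting noise (chi-square divided by its degrees of freedom, 1.78 to 2.88). Identifiers were matched to GENCODE 29 without version.

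Members and lists were chosen with earlier results of these data known. All members were named, and of each further list up to 5 called genes per direction, by size, provided the mean log2 CPM reached 1; genes named outside this rule were chosen after their values were seen. Alternatives were total-count, RLE and upper-quartile scaling, a filter of 1 CPM in 3 libraries or none, DESeq2 1.42.0, legacy quasi-likelihood, limma-voom, limma 3.58.1 on log2(FPKM + 1) and log2(FPKM + 0.1), a replicate block, and each library left out.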

Additional observations from a re-analysis of the deposited data

How the results depend on the processing

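Over 17 alternatives YAP1, TEAD4, AMOTL1, AMOTL2, LATS2, CCN2 and ANKRD1 kept their call and direction in each. Members lower numbered 1 in place of 2 with total-count scaling and on both FPKM scales, since TEAD1 was lost (0.0046 with log2(FPKM + 1) and 0.0051 with log2(FPKM + 0.1)). WWTR1 turned positive, at 0.066 when scaled by total counts, 0.095 for log2(FPKM + 1) and 0.099 for log2(FPKM + 0.1), and ranged from -0.033 to 0.019 with a library left out. CCN1 had 0.071, 0.077 and 0.0995 under the same 3 settings and ranged from -0.053 to 0.027 with a library left out. Other Hippo genes higher numbered 22 with total-count scaling and 18 on each FPKM scale, and lower 2, 1 and 0 in that order. Other targets lower numbered 3 with total-count scaling and 0 on each FPKM scale. At an unadjusted p under 0.05 limma gave 2 lower Hippo genes and 1 lower target on each FPKM scale. MOB1A had 0.015 on both FPKM scales and AXL 0.012 and 0.013. Total-count scaling shifted the median of all genes by 0.076, log2(FPKM + 1) by 0.052 and log2(FPKM + 0.1) by 0.096, and 69.5%, 77.3% and 77.2% of calls were then higher, against 50.3%. Total-count scaling leaves out the TMM factors, which ran from 1.021 to 1.031 in knockdown and from 0.9708 to 0.9767 in control libraries. The cause of the group difference in these factors, and of the shift on the FPKM scales, was not tested. With the replicate block 6 members were higher and 2 lower and 7642 genes were called, against 7531, and the paralog differences were -0.95, -0.57, 0.52, -0.35 and 0.27 as before. Deviations of libraries with the same number correlated weakly (r = 0.0403, 0.0185 and 0.0958 for replicates 1 to 3). For libraries with different numbers r ran from -0.0911 to 0.0565. These values were small and the labels state no shared batch, so the numbers were not taken to pair libraries. ANKRD1, which had the lowest counts of the members in controls (253 to 320), varied by 10.5% there, against a counting error of 5.98%.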
